A study of Mus musculus with 4 samples.

Results

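The 10 genes of the urea cycle and of ammonia entry were read from pooled mouse liver libraries. They were taken by name from the read count table, and all 10 of them were found among its 35275 genes and were at 1 CPM or more in every library. The enzymes of the cycle proper are encoded by Cps1, Otc, Ass1, Asl and Arg1. Nags makes the activator of CPS1, Slc25a15 and Slc25a13 encode mitochondrial carriers that serve the cycle, and Glud1 and Glul encode the enzymes that release ammonia from glutamate and fix it into glutamine.

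The livers came from female mice of 4 groups that all carried the amyloidogenic Apoa2c allele. The study names the strain R1.P1-Apoa2c, a congenic line derived from SAMR1, while AKR/J stands as strain and Apoa2c congenic as genotype in the sample labels. VS mice were given vehicle and stayed sedentary, VI mice were given vehicle and underwent interval exercise training (IT), FS mice were injected with AApoAII amyloid fibrils and stayed sedentary, and FI mice had both the fibrils and IT. All mice were 26 weeks old, at the end of 16 weeks of training or of sedentary housing. Liver of 4 mice was pooled before RNA extraction in each group, so that 16 mice gave 4 libraries, 1 per group, and a ratio between a pair of libraries, written VI/VS for VI relative to VS, has no replicate check. Total counts lay between 23442935 in VS and 28814802 in FS. A level is given below either as CPM, the usual count scaled to the library total, here after TMM scaling, or as FPKM, which also corrects for gene length and is the unit used whenever different genes are compared. Intervals are at 95%, cover counting error only and leave out differences between mice or pools. PCR copies of a molecule could not be told from separate molecules, so the intervals may be too narrow even for counting error.

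The urea cycle disposes of the ammonia that amino acid breakdown releases. Carbamoyl phosphate made by CPS1 in the mitochondria is joined to ornithine by OTC, citrulline leaves for the cytosol in exchange for ornithine through the carrier ORNT1 (Slc25a15), ASS1 joins it to aspartate, ASL splits the product into arginine and fumarate, and ARG1 releases urea and gives back ornithine. The cycle runs mainly in periportal hepatocytes, while glutamine synthetase (Glul) sits in a narrow rim of hepatocytes around the central vein and takes up the ammonia that escaped. In the liver, transcription of the cycle enzymes is known to respond to glucagon, glucocorticoids and protein intake.

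The genes differed in the order of their levels. Cps1, Ass1, Asl, Arg1 and Slc25a15 were lowest in VS and highest in FI, with VI and FS between, whereas Otc, Nags, Slc25a13, Glud1 and Glul varied by no more than 1.23-fold between the lowest and the highest library. Lowest in VS and highest in FI held for 5 of the 10 genes and for 14.0% of the 12180 genes that reached 1 CPM in any library; this order was counted after the values had been seen. Together, the 5 genes that shared the order made up 0.476% (VS), 0.742% (VI), 0.758% (FS) and 0.951% (FI) of all counts. Their summed level in FI was 2.06-fold that in VS, a direction already fixed by choosing the genes for this order. Relative to VS, the summed level of the other 5 was 0.979 (VI), 0.894 (FS) and 0.932 (FI). In bulk tissue, fewer cells of a type and less RNA per cell cannot be told apart.

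**Figure D1:**
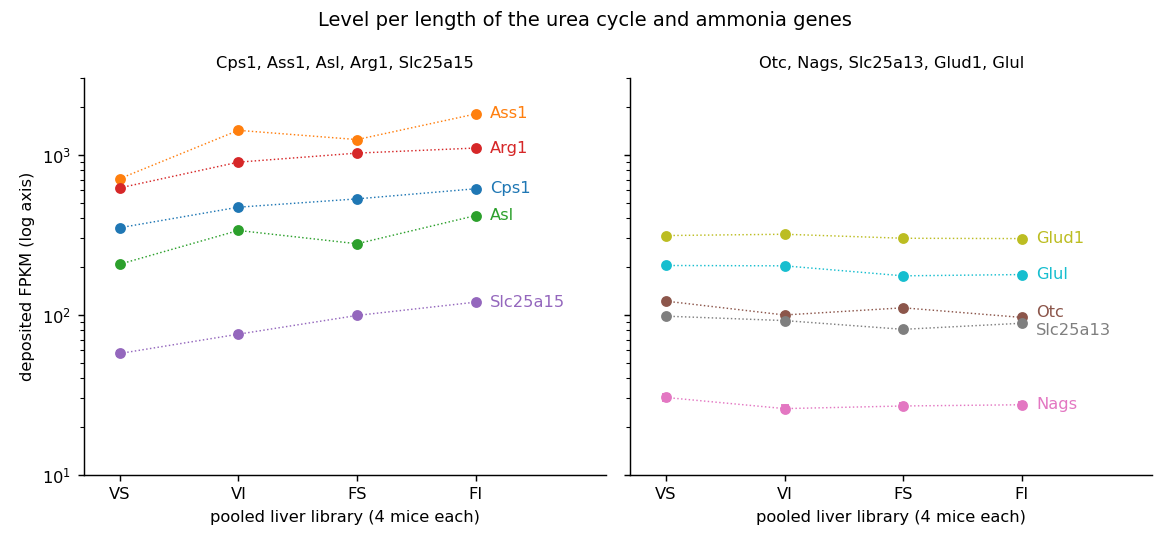
Deposited FPKM (log axis) of the 10 genes in each of the 4 pooled libraries, with 95% Poisson intervals that are mostly smaller than the points; dotted lines only join the points of a gene. The genes on the left were lowest in VS and highest in FI, from 709 to 1800 FPKM for Ass1, and those on the right stayed nearly level.

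Promoter sequence is shown for the carrier gene Slc25a15 and for Ass1, which both shared the order with VS lowest, and for Otc, which did not. The stretches are from RefSeq on GRCm38.p6, in the direction of transcription, up to the last base before the gene as listed with the counts. Capitals mark GGGCGG, the GC box, on either strand. Of the 10 genes, 7 had a promoter in the table of promoters, with Cps1, Asl and Arg1 not among them.

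Slc25a15, chr8:22398622-22398871, minus strand: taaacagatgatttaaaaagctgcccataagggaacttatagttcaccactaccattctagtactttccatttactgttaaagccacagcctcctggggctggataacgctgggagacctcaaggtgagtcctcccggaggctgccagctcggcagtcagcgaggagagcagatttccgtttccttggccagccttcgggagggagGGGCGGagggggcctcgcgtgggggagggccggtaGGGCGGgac
Ass1, chr2:31470020-31470206, plus strand: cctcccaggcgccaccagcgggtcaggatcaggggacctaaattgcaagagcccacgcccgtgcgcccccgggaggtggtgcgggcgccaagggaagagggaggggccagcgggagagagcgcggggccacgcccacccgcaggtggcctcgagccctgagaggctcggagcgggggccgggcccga
Otc, chrX:10252055-10252304, plus strand: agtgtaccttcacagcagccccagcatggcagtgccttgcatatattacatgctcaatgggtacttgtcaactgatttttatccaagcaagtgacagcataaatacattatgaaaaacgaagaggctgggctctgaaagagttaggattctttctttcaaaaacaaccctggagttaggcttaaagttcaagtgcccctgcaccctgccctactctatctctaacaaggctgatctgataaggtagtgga

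The Slc25a15 stretch holds 2 GC boxes, and the stretches of Ass1 and Otc hold none. Slc25a15 has 2 of the 8 windows of these genes, and that of its other RefSeq start, at 22398277, holds 5 GC boxes. GC boxes were found in 6 of the 8 windows, also in those of Nags, Glud1 and Glul. A GC box of Ass1 lies just past the end of its stretch, before the start that RefSeq gives. In windows of 250 bases before each RefSeq start, on both strands, GGGCGG was found in 32.7% of all 32851 windows, TTGCNNAA (bound by C/EBP factors) in 9.6%, TGACG (the core of the cAMP response element, bound by CREB) in 17.8% and TGTTCT (the core of the glucocorticoid response element) in 16.1%. None of the 8 windows of these genes holds TTGCNNAA or TGTTCT, and TGACG is found in that of Slc25a13 alone. These are matches of letters in short windows, and nothing about binding was measured.

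Cps1 (ENSMUSG00000025991, chromosome 1, 67123026 to 67231259, mm10) encodes carbamoyl phosphate synthetase, the entry enzyme of the cycle. It had 1930 (VS), 2630 (VI), 2874 (FS) and 3493 (FI) CPM. FI was 1.81-fold above VS, and each single condition lay between. The log2 ratio was 0.45 (0.43 to 0.46) in VI/VS, 0.28 (0.27 to 0.29) in FI/FS, 0.57 (0.56 to 0.59) in FS/VS and 0.41 (0.39 to 0.42) in FI/VI.

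Ass1 (ENSMUSG00000076441, chromosome 2, 31470207 to 31520672), the gene of argininosuccinate synthetase, had the widest range of the 10 over the 4 libraries. It had 1194 (VS), 2427 (VI), 2060 (FS) and 3130 (FI) CPM, and FI stood 2.62-fold above VS. The level in VI was above that in FS, unlike that of Cps1, and in FI/FS Asl and in FI/VI Slc25a15 and Cps1 had larger ratios than Ass1. Its log2 ratios were 1.02 (1.0035 to 1.0445) in VI/VS, 0.60 (0.59 to 0.62) in FI/FS, 0.79 (0.77 to 0.81) in FS/VS and 0.37 (0.35 to 0.38) in FI/VI.

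Asl (ENSMUSG00000025533, chromosome 5, 130011258 to 130025132) encodes argininosuccinate lyase, which acts on the product of ASS1. It had 496 (VS), 817 (VI), 655 (FS) and 1032 (FI) CPM, again with VI above FS. The log2 ratios were 0.72 (0.69 to 0.75) in VI/VS and 0.66 (0.63 to 0.68) in FI/FS, against 0.40 (0.37 to 0.43) in FS/VS and 0.34 (0.31 to 0.36) in FI/VI. In these libraries Asl thus differed more between IT and sedentary than between fibril and vehicle.

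Arg1 (ENSMUSG00000019987, chromosome 10, 24915208 to 24927470) encodes the liver arginase, the last step. Its levels were 910 (VS), 1336 (VI), 1476 (FS) and 1667 (FI) CPM. FS was above VI here, and the IT ratio in fibril livers was the smallest of the 5 genes. The log2 ratios were 0.56 (0.53 to 0.58) in VI/VS, 0.18 (0.16 to 0.20) in FI/FS, 0.70 (0.67 to 0.72) in FS/VS and 0.32 (0.30 to 0.34) in FI/VI. Arginase is also a macrophage product, and the summed level of 8 macrophage genes was 215 (VS), 267 (VI), 335 (FS) and 317 (FI) CPM, with none of the 8 at a count of 0; their part in the Arg1 values was not tested.

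Otc (ENSMUSG00000031173, chromosome X, 10252305 to 10321024), the gene of ornithine transcarbamylase, was the enzyme gene that did not share this order. It had 362 (VS), 301 (VI), 323 (FS) and 296 (FI) CPM, highest in VS. Its log2 ratios were −0.27 (−0.31 to −0.22) in VI/VS, −0.13 (−0.17 to −0.08) in FI/FS, −0.16 (−0.21 to −0.12) in FS/VS and −0.02 (−0.07 to 0.02) in FI/VI, where the interval includes 0.

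Of the carriers and the activator, Slc25a15 was the gene with VS lowest. Slc25a15 (ENSMUSG00000031482, chromosome 8, 22375554 to 22398621) encodes ORNT1, which brings ornithine into the mitochondria and takes citrulline out. It had 196 (VS), 263 (VI), 334 (FS) and 424 (FI) CPM, so that FI was 2.16-fold above VS. The log2 ratios were larger between fibril and vehicle, 0.77 (0.72 to 0.82) in FS/VS and 0.69 (0.65 to 0.74) in FI/VI, than between IT and sedentary, 0.42 (0.37 to 0.48) in VI/VS and 0.35 (0.31 to 0.39) in FI/FS.

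Slc25a13 (ENSMUSG00000015112, chromosome 6, 6041218 to 6217173) encodes citrin, the carrier that exports aspartate for the ASS1 step. It had 304 (VS), 289 (VI), 247 (FS) and 283 (FI) CPM, lowest in FS. Its ratio was −0.30 (−0.35 to −0.25) in FS/VS and 0.20 (0.15 to 0.25) in FI/FS, both on the log2 scale. In VI/VS it was −0.07 (−0.12 to −0.02) and in FI/VI −0.03 (−0.08 to 0.02).

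Nags (ENSMUSG00000048217, chromosome 11, 102145513 to 102149477), the gene of N-acetylglutamate synthase, had the lowest level per length of the 10 in every library. Its CPM were 82.0 (VS), 70.8 (VI), 71.3 (FS) and 76.2 (FI), a range of 1.16-fold. The log2 ratios were −0.21 (−0.31 to −0.12) in VI/VS and −0.20 (−0.29 to −0.11) in FS/VS, and 0.10 (0.01 to 0.19) in FI/FS and 0.11 (0.01 to 0.20) in FI/VI. With total counts the FI/FS ratio was 0.03. An antisense gene overlaps Nags, and it had no more than 2 counts in any library.

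Glud1 (ENSMUSG00000021794, chromosome 14, 34310727 to 34345144), which encodes mitochondrial glutamate dehydrogenase, was the most even of the genes, with 1015 (VS), 1049 (VI), 960 (FS) and 1003 (FI) CPM. The highest library was 1.09-fold above the lowest. Its log2 ratios ranged between −0.08 (−0.11 to −0.06) in FS/VS and 0.06 (0.04 to 0.09) in FI/FS, the latter turning to −0.01 under scaling by total counts.

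Glul (ENSMUSG00000026473, chromosome 1, 153899944 to 153909723), the gene of glutamine synthetase, had 563 (VS), 568 (VI), 477 (FS) and 511 (FI) CPM. Both fibril libraries were below both vehicle libraries, with log2 ratios of −0.24 (−0.27 to −0.21) in FS/VS and −0.15 (−0.19 to −0.12) in FI/VI, while VI/VS gave 0.01 (−0.02 to 0.05) and FI/FS 0.10 (0.06 to 0.13). Teddm2 overlaps Glul on the opposite strand and had between 8 and 25 counts in a library. Skeletal muscle also makes glutamine synthetase, and the VS library stood apart by its muscle transcripts, with 71.8 CPM summed over 9 muscle genes against 7.96 in VI, 0.779 in FS and 0.248 in FI; 6 of the 9 had no count in FI and 2 had none in FS. The part of muscle RNA in the Glul values was not tested.

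**Figure D2:**
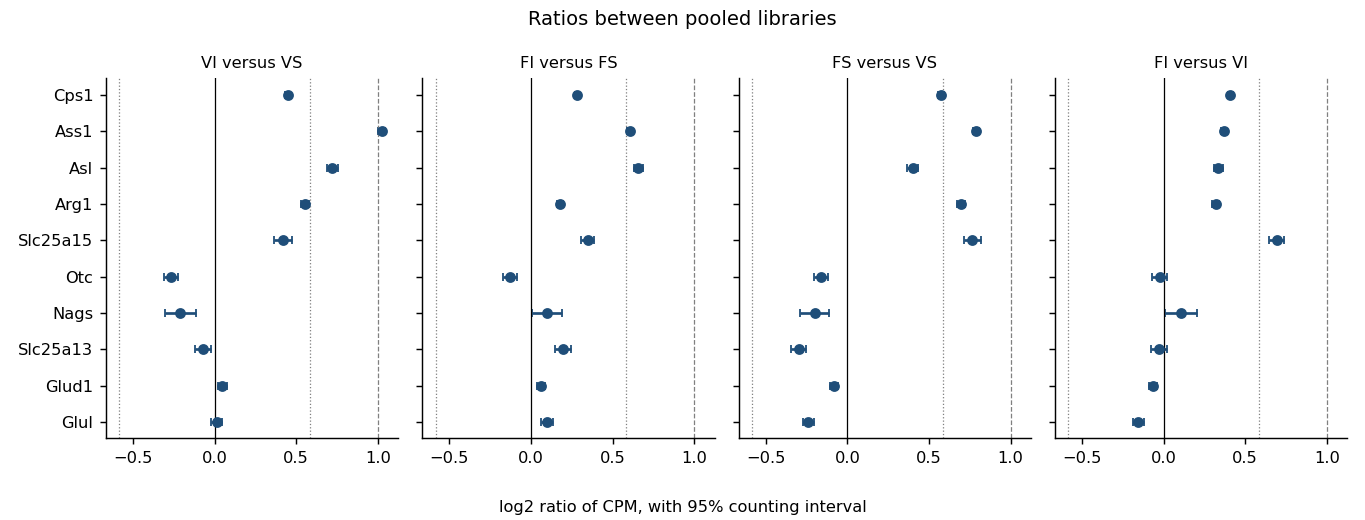
Log2 ratios of CPM for the 10 genes in the 4 comparisons of pooled libraries, with 95% counting intervals; dotted lines mark 1.5-fold and dashed lines 2-fold. Cps1, Ass1, Asl, Arg1 and Slc25a15 lie to the right of 0 in each panel, and the other 5 genes lie between −0.30 and 0.20. The side of the former was fixed by choosing them for VS lowest and FI highest.

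Counted by size, 1 of the 10 genes, Ass1 in VI/VS, differed by more than 2-fold in that comparison, where 3.43% of the 12180 genes did so. No member passed 2-fold in FI/FS, FS/VS or FI/VI, where the shares of all genes were 4.26%, 5.78% and 4.54%. At 1.5-fold, Ass1 and Asl were higher in VI than in VS, 2 of 10 against 5.36% of all genes, and the same pair was higher in FI than in FS, 2 of 10 against 5.94%; the latter count was 1 with total counts and 0 with FPKM and a pseudocount of 1. Ass1, Arg1 and Slc25a15 were higher by 1.5-fold in FS than in VS, 3 of 10 against 10.1%. Only Slc25a15 was so in FI/VI, 1 of 10 against 7.90%. None of the 10 was lower by 1.5-fold in any of the comparisons, whereas 6.30% of all genes were in VI/VS, 7.61% in FI/FS, 7.41% in FS/VS and 6.08% in FI/VI. The median log2 ratio of the 10 genes was 0.23 in VI/VS, 0.19 in FI/FS, 0.16 in FS/VS and 0.21 in FI/VI, beside medians over all genes between 0.00 and 0.02. With total counts the median of the 10 in FI/FS was 0.12. Among the 2724 genes that reached 50 CPM in a library, as all 10 did, the share beyond 2-fold was 1.69% in VI/VS, 1.95% in FI/FS, 4.30% in FS/VS and 2.68% in FI/VI, the share higher by 1.5-fold was 3.67%, 4.70%, 7.23% and 5.21% in the same order, and the medians were 0.00, 0.03, −0.10 and −0.07.

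**Figure D3:**
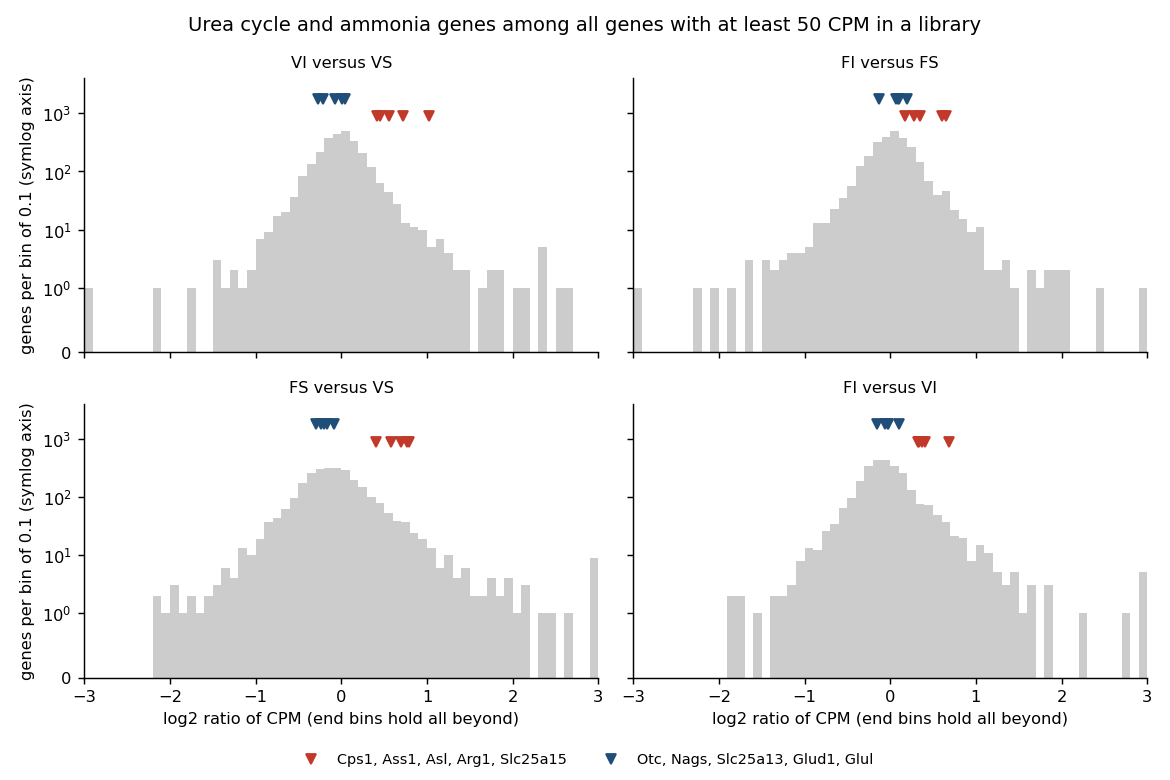
Number of genes per bin of log2 ratio (symlog axis) for the 2724 genes that reached 50 CPM in any library, with triangles at the ratios of the urea cycle and ammonia genes. Red triangles (Cps1, Ass1, Asl, Arg1, Slc25a15) lie on the upper flank, up to 1.02 for Ass1 in VI/VS, and blue triangles (Otc, Nags, Slc25a13, Glud1, Glul) near the peak. The genes in red were chosen for VS lowest and FI highest, which fixes the sign of their ratios.

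A model with additive terms for IT and for amyloidosis leaves 1 residual degree of freedom over the 4 libraries, and it was fitted to 11760 genes with edgeR's quasi-likelihood test and Benjamini-Hochberg adjustment. Of the 10 genes, 1 changed with amyloidosis, where 4.59% of all genes did, and none changed with IT, where 1.34% did. Slc25a15 rose with amyloidosis by 0.73 on the log2 scale (SE 0.12, adjusted p = 0.0171, edgeR), higher in both fibril libraries. Asl and Ass1 came next to the threshold with IT, at 0.69 (SE 0.13, adjusted p = 0.0502, edgeR) and 0.81 (SE 0.16, adjusted p = 0.0598, edgeR), both higher in the IT library of either pair. With amyloidosis, Ass1 was at 0.58 (SE 0.16, adjusted p = 0.0863), Cps1 at 0.49 (SE 0.14, adjusted p = 0.1) and Arg1 at 0.51 (SE 0.15, adjusted p = 0.103; edgeR). An unadjusted p below 0.05 was reached by Cps1, Ass1, Asl, Arg1 and Slc25a15 with either term, 5 of 10 genes against 14.5% of all genes with IT and 21.1% with amyloidosis. Otc, Nags, Slc25a13, Glud1 and Glul had changes between −0.20 and 0.06 with either term. These calls near the threshold depended on the tool: DESeq2 and limma-voom in the same design called Asl and Ass1 with IT, and DESeq2 called Ass1 with amyloidosis.

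The residual of that model is the difference of the IT ratio between fibril and vehicle livers, which can be given as a value but not tested. None of the 10 genes had a difference beyond 1 on the log2 scale, where 5.84% of the 12180 genes did. The IT log2 ratio in fibril livers minus that in vehicle livers was −0.42 (−0.45 to −0.39) for Ass1, −0.38 (−0.41 to −0.35) for Arg1 and −0.17 (−0.19 to −0.14) for Cps1. For Asl and Slc25a15 it was −0.06 (−0.11 to −0.02) and −0.07 (−0.14 to −0.01), closer to 0. The 5 genes with VS lowest all had a negative difference, and the other 5 had a positive one, up to 0.31 (0.18 to 0.44) for Nags. That of Glud1, 0.02 (−0.02 to 0.05), had an interval that includes 0 and turned to −0.03 with FPKM. The genes were grouped by the same levels, where a low VS level lowers this difference and a high FI level raises it. The split by sign is therefore not independent of the grouping.

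Compared per length, Ass1, Arg1 and Cps1 took the first places in every library. In VS the order was Ass1 at 709 FPKM, Arg1 at 621, Cps1 at 349.9, Glud1 at 313, Asl at 207, Glul at 203, Otc at 122, Slc25a13 at 98.0, Slc25a15 at 57.3 and Nags at 30.4. Asl and Glul overlapped there within counting error, the only neighbours to do so in any library. In FI the order was Ass1 at 1800.4 FPKM, Arg1 at 1102, Cps1 at 613, Asl at 417, Glud1 at 299, Glul at 178, Slc25a15 at 119.96, Otc at 96.3, Slc25a13 at 88.5 and Nags at 27.4. Asl thus passed Glud1, and Slc25a15, which stood below both Otc and Slc25a13 in VS, stood above both in FI. By FPKM, Ass1 ranked 96 among all genes of the table in VS and 40 in FI, while Otc ranked 564 in VS and 618 in FI.

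The proportions between the steps shifted with these levels. The FPKM ratio of Ass1 to Otc was 5.82 (VS), 14.3 (VI), 11.3 (FS) and 18.7 (FI), and that of Cps1 to Otc 2.87, 4.72, 4.79 and 6.37 in the same order. Between the consecutive cytosolic steps, by contrast, Ass1 to Asl moved within 3.42 in VS and 4.48 in FS. The carriers changed places, with Slc25a15 to Slc25a13 at 0.584 (VS), 0.822 (VI), 1.22 (FS) and 1.35 (FI). Between urea and glutamine synthesis, the ratio of Cps1 to Glul was 1.72 (VS), 2.33 (VI), 3.03 (FS) and 3.44 (FI). These are transcript levels, and neither enzyme protein, activity, ammonia nor urea is measured by them.

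The genes that supply nitrogen to the cycle were followed in a list of 29, with 26 of them at 1 CPM or more in a library. In the additive model 2 of the 26 rose with IT and 5 rose with amyloidosis, and none fell. Of all genes tested, 1.34% changed with IT and 4.59% with amyloidosis, in either direction. Got1, the cytosolic aspartate aminotransferase, had 86.6 (VS), 454 (VI), 376 (FS) and 946 (FI) CPM, and rose with IT by 1.86 (SE 0.25, adjusted p = 0.0272, edgeR) and with amyloidosis by 1.58 (SE 0.24, adjusted p = 0.019, edgeR). Sds, the serine dehydratase that frees ammonia from serine, had 54.6, 114, 114 and 177 CPM in the same order and rose with both terms (adjusted p = 0.0338 and 0.0165, edgeR). Both genes were lowest in VS and highest in FI. For Got1 the additive change with IT averages unlike log2 ratios, 2.39 in VI/VS and 1.33 in FI/FS. Their difference, fibril minus vehicle, was −1.06 (−1.13 to −0.98). With amyloidosis the other risers were Gpt2, the mitochondrial alanine aminotransferase, Slc7a2, an arginine and lysine transporter, and Slc38a2, a neutral amino acid transporter, which had 130 (VS), 184 (VI), 282 (FS) and 334 (FI) CPM.

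The order with VS lowest and FI highest, held by 14.0% of all genes, was also that of other genes of the nitrogen list. These were Slc38a2, Slc7a2, Gpt2, Slc43a1, Slc25a22, Slc25a29, Hal, Slc38a4 and Slc1a2. Gls2, Slc38a3 and Car5a were among those that did not share it. Gls2, the liver glutaminase, had 247 (VS), 325 (VI), 232 (FS) and 322 (FI) CPM, above both sedentary libraries in both IT libraries (additive change 0.43, SE 0.12, adjusted p = 0.155, edgeR). Slc38a3, a glutamine transporter, was highest in VS at 2056 CPM and lowest in FI at 1569 CPM. Car5a, the mitochondrial carbonic anhydrase that supplies bicarbonate to CPS1, lay between 20.6 CPM in FS and 24.6 CPM in VS. The median log2 ratio of the list was 0.26 in VI/VS, 0.08 in FI/FS, 0.22 in FS/VS and 0.03 in FI/VI.

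Of 22 listed genes of arginine, ornithine, proline, creatine and polyamine metabolism, 19 were at 1 CPM or more in a library. In the additive model 2 of the 19 changed with IT and 2 with amyloidosis, beside 1.34% and 4.59% of all genes. Gamt, which methylates guanidinoacetate to creatine, fell with IT by 0.83 on the log2 scale (SE 0.11, adjusted p = 0.0191, edgeR) and with amyloidosis by 0.75 (SE 0.11, adjusted p = 0.0135, edgeR), with 256 (VS), 141 (VI), 149 (FS) and 86.1 (FI) CPM. Its level was highest in VS and lowest in FI, as was that of Otc. Gatm, which makes guanidinoacetate from arginine, had 18.8 (VS), 15.4 (VI), 13.4 (FS) and 8.02 (FI) CPM and did not pass the test. Prodh, the proline dehydrogenase, rose with IT by 0.66 (SE 0.11, adjusted p = 0.0408, edgeR), and Aldh4a1, the next enzyme of proline breakdown, fell with amyloidosis by 0.61 (SE 0.13, adjusted p = 0.0422, edgeR). Oat, which drains ornithine, was higher in FI (489 CPM) than in VS (322), VI (326) and FS (310.5). Odc1, the ornithine decarboxylase of polyamine synthesis, was at 51.5, 49.7, 40.9 and 67.2 CPM in VS, VI, FS and FI. Arg2, the second arginase, did not exceed 1.52 CPM in any library.

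**Figure D4:**
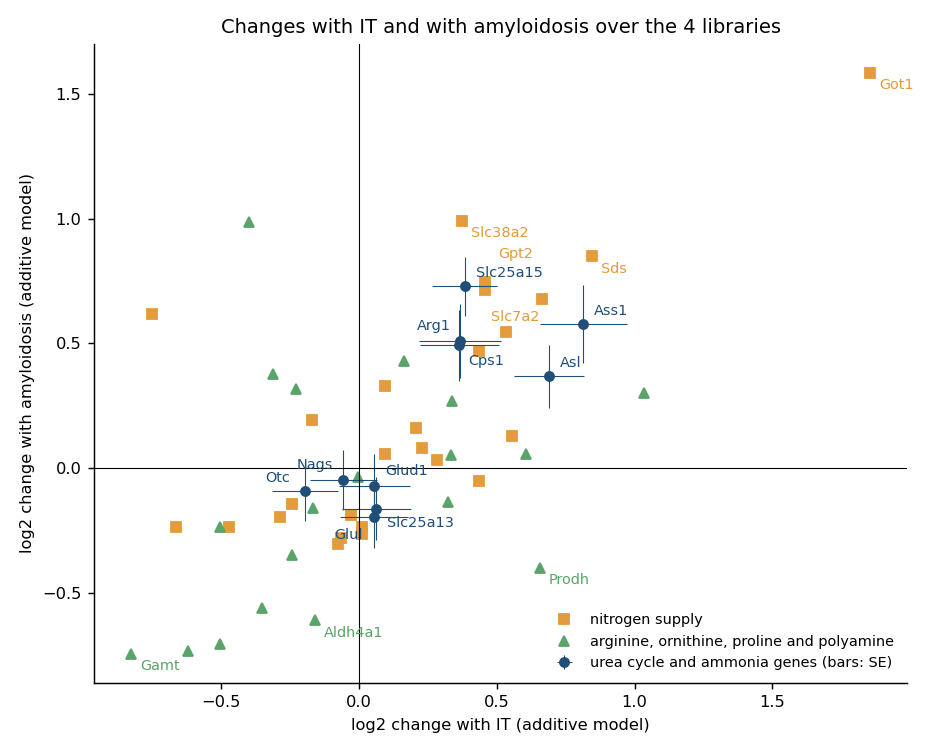
Change with IT (horizontal) and with amyloidosis (vertical) on the log2 scale in the additive model, for the urea cycle and ammonia genes (circles, bars show SE), genes of nitrogen supply (squares) and genes of arginine, ornithine, proline and polyamine metabolism (triangles). Cps1, Ass1, Asl, Arg1 and Slc25a15 lie in the upper right with Got1 and Sds, the other 5 genes lie near 0, and Gamt lies at the lower left. For Cps1, Ass1, Asl, Arg1 and Slc25a15 the direction was fixed by choosing them for VS lowest and FI highest.

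Among 17 listed regulators of the cycle, all expressed, 1 changed, Foxa2 with amyloidosis, where 4.59% of all genes did. None of the 17 changed with IT, where 1.34% of all genes did. Both counts are near those shares. Foxa2, a hepatocyte forkhead factor, fell with amyloidosis by 0.72 (SE 0.12, adjusted p = 0.0201, edgeR), with 37.5 (VS), 36.5 (VI), 24.5 (FS) and 20.7 (FI) CPM. Ppargc1a, a coactivator of fasting metabolism, had 10.97 (VS), 19.9 (VI), 17.5 (FS) and 25.6 (FI) CPM and did not pass (adjusted p = 0.0717 with IT and 0.092 with amyloidosis, edgeR). Cebpb, which binds promoters of cycle genes, had 150.1 (VS), 187 (VI), 180.5 (FS) and 214 (FI) CPM, and Gcgr, the glucagon receptor, had 351, 274, 263 and 210.1. Cebpb was lowest in VS and highest in FI, and Gcgr was highest in VS and lowest in FI, both without passing the test. Cebpa, the gene of another C/EBP factor, went the other way from Cebpb, with 618 (VS), 402 (VI), 421 (FS) and 367 (FI) CPM. It did not pass the test either. Sirt5, which deacylates CPS1, had 10.7 CPM in VS and between 6.08 and 7.21 CPM in the other libraries.

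Zonation markers were set beside the members because the cycle is periportal and Glul pericentral. Of 8 hepatocyte genes listed for a check of the tissue, 7 were matched, and these made up between 15.7% and 17.7% of all counts. Most of that was Alb, at 119860 (VS), 124220 (VI), 132330 (FS) and 135780 (FI) CPM. The 7 were not even, since 1 of them, Tat, rose with IT and with amyloidosis, beside 1.34% and 4.59% of all genes. Tat had 938 (VS), 2018 (VI), 3225.5 (FS) and 5278 (FI) CPM. Of 10 periportal genes, 1 rose with IT and with amyloidosis, Sds, which the nitrogen list also holds, and none fell. Of all genes, 1.34% changed with IT and 4.59% with amyloidosis. The summed level of the 10 periportal genes was 7490 (VS), 8226 (VI), 7983 (FS) and 8654 (FI) CPM. Without Pck1, the gene of a gluconeogenic enzyme, the other 9 summed to 3679 (VS), 3955 (VI), 3048 (FS) and 3401 (FI) CPM, lower in the fibril library of either pair. The largest part of that sum was a single gene, Pigr, with 1837 (VS), 1808 (VI), 1378 (FS) and 1432 (FI) CPM. In FS/VS 5 of the 10 were lower and 5 higher, with a median log2 ratio of 0.04. In FI/VI 7 were lower and 3 higher, with a median of −0.23. The medians over all genes were 0.02 and 0.01, and over genes that reached 50 CPM −0.10 and −0.07. Cdh1, an epithelial cadherin on that list, had 3.13 (VS), 5.79 (VI), 6.77 (FS) and 4.84 (FI) CPM. Of 15 pericentral genes, 14 could be tested, and 4 fell with amyloidosis, Cyp1a2, Cyp2a5, Tbx3 and Lect2, where 4.59% of all genes changed. Cyp2a5, a cytochrome P450, had 1643 (VS), 1592 (VI), 696 (FS) and 802 (FI) CPM, and Cyp1a2 had 349.6, 293, 158 and 179.9. In FS/VS 3 of the 15 pericentral genes were lower by more than 2-fold, against 2.18% of all genes, with a median log2 ratio of −0.68 beside −0.24 for Glul. In FI/VI 2 of the 15 were, against 1.95% of all genes, with a median of −0.17 beside −0.15 for Glul. Between IT and sedentary, the median of the 15 was −0.35 in VI/VS beside 0.01 for Glul, and −0.01 in FI/FS beside 0.10. In VI/VS 11 of the 15 were lower and 4 higher, where the median over all genes was 0.00. The part of the pericentral genes in the Glul values was not tested. None of the 15 had a count of 0 in any library.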

How the data were processed

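Liver RNA of 4 pools of 4 mice was sequenced. The authors deposited raw read counts per gene, not normalized; the submitters' processing notes name fastp 0.23.2, STAR 2.5, HTSeq 0.6.1 and build mm10, with no annotation release named. The authors also deposited FPKM, which equal count over gene length and library total (69722 of 69722 values above 0 recomputed within a tolerance of 0.001). Start and end of 6 of the 10 genes equal GENCODE M21. The strand setting was not given in the sources used here.

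The members and the gene lists were chosen with earlier results of these data known. Counts were scaled by TMM (factors 0.9754 to 1.0246). For log2 ratios 0.5 counts were added to each library. Their intervals are Clopper-Pearson, conditional on the summed count, levels have exact Poisson intervals, and differences of ratios intervals from the summed reciprocals of the counts. VS serves as denominator of both VI/VS and FS/VS, and FI is the numerator of FI/FS as well as of FI/VI. The additive model used edgeR's robust quasi-likelihood test (R 4.3.3, edgeR 4.0.16) on the 11760 genes that reached 1 CPM in 2 or more libraries, adjusted over all genes, with the SE taken as the size of the change over the square root of F, and was tested on simulated data. Alternatives used DESeq2 1.42.0 and limma 3.58.1, other scalings, FPKM with a pseudocount of 1 or 0.1, and other filters. Named genes were the 10 members, 9 fixed genes of the lists, and the 2 genes of each list with the largest ratio at 5 CPM or more. Genes of the nitrogen and arginine lists called in the additive model were added after their values were seen, as were the pericentral genes called and Cebpa. Of the listed symbols, 2 were matched by Ensembl identifier, and figures were drawn with matplotlib 3.10.9 under Python 3.11.15.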

Additional observations from a re-analysis of the deposited data

Results flagged for a closer look

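The IT log2 ratio pointed in opposite directions in vehicle and fibril livers for 2 of the genes, which drew attention to them. For Nags the ratio in fibril livers minus that in vehicle livers was 0.31, and for Slc25a13 it was 0.27. The FI/FS log2 ratio of Nags, 0.10 (0.01 to 0.19), was 0.03 with total counts and 0.02 with FPKM and a pseudocount of 1, so that its distance from 0 depended on the scaling. For Nags the amyloidosis ratio also changed sign, with 0.31 between IT and sedentary livers, which is the same number by construction. With 1 library in each group, none of these differences was tested.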

How the results depend on the processing

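With 1 pooled library in each group, no library could be left out of a ratio, and without any 1 library the additive model has no residual degree of freedom. No paired analysis was possible because each group has 1 library, so the replicate numbers pair nothing. In FI versus FS, the members beyond 1.5-fold were 1 with total counts, 0 with FPKM and a pseudocount of 1 and 1 with a pseudocount of 0.1, against 2, and their median log2 ratio was 0.116, 0.115 and 0.116 in the same order, against 0.19. The Glud1 ratio in FI versus FS changed sign to −0.0071 under each of these 3 settings, and the difference of its IT ratios to −0.034 with either pseudocount. Members called with IT, none in the reported fit, were 1 without robust estimation and 2 with DESeq2 size factors, with no filter, with DESeq2 and with limma-voom. Members called with amyloidosis, 1 in the reported fit, were 4 with no filter and 2 with DESeq2. Of all genes, 157 were called with IT, against 241 with DESeq2 size factors and 740 with no filter, and 540 with amyloidosis, against 1519 with no filter. The cause of these changes was not tested. Depth limits little here, since each member had at least 1725 counts, whereas the spread between mice or pools could not be measured.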
